A study of Mus musculus with 10 samples.

Results

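This account concerns 10 genes of bone morphogenetic protein (BMP) signalling: the ligands Bmp2, Bmp3, Bmp4, Bmp6, Bmp7 and Gdf5, the secreted antagonists Grem1, Nog and Chrd, and the receptor Bmpr1b. They were taken by symbol from the 34717 distinct gene names on the array, and they were selected because measured values of these same arrays were known, above all the opposite behaviour of Bmp2 and Bmp4. Their levels and differences are therefore a description and no p-value is given for them, and calls from the fit over all genes are only counted beside the share called over all genes. Of the 10 genes, 9 reached a signal well above background on the duplicates of some group and so entered the fit of 22591 genes, and Bmp7 did not. Bmp4, Bmp6, Grem1, Nog and Chrd were well above background on all 10 arrays with the probe used. The others could enter through the group where they were bright, so the number that entered is not evidence of change.

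Total RNA from 10 cultures of mouse mesenchymal stem cells of the FVB strain was labelled with Cy3 and hybridised to single-colour Agilent arrays, 1 array a culture and 2 cultures in each of 5 groups. The tumor line group was labelled in part as a tumor and in part as a cell line obtained after subcutaneous injection of null BM-MSC into immunodeficient NSG mice. Null BM-MSC came from bone marrow, were kept for 10 days in osteogenic medium and lacked Rb and p53 by label, and wild-type BM-MSC carried by label neither deletion nor priming. Null ASC came from fat and were primed and deleted in the same way, and wild-type ASC were their unmodified counterpart. The protocol describes floxed Rb and p53 alleles that were cut by an adenovirus expressing Cre from the CMV promoter after priming, while the source labels speak of cells of Rb-/-p53-/- mice. Gene loss, virus and priming therefore went together in each null group, and their parts cannot be told apart. The labels describe the duplicates as independent cultures, and the tumor line duplicates may share 1 line, so an error here is the spread between such duplicates.

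BMPs are secreted dimers of the TGF-beta superfamily that bind pairs of type I and type II receptor kinases and drive phosphorylation of the receptor SMADs, which enter the nucleus with SMAD4 and switch on genes such as the Id family. Extracellular antagonists (gremlin, noggin and chordin) bind the ligands and keep them from the receptors. In skeletal stromal cells the pathway is best known for driving bone and cartilage formation, and Bmp2 and Bmp4 are its classical bone-inducing ligands.

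Between 53.3% and 58.4% of spots were well above background, no spot was saturated, and duplicates correlated at 0.994 to 0.996 across genes. The tumor line arrays shared a slide of their own, and on the other slide wild-type and null cultures lay in different lines of positions, so slide or line and group cannot be told apart. All 10 mesenchymal stromal markers (among them Cd44, Nt5e and Col1a1) were well above background in every group. Of 4 endothelial markers, Pecam1 and Kdr were also well above background in every group, and Cdh5 and Tek were so in none. Rb1 averaged 0.60 in null BM-MSC against 1.91 in wild-type BM-MSC, and -1.94 in null ASC against 1.31 in wild-type ASC. Trp53 averaged -1.0 in null BM-MSC against 0.77 in wild-type BM-MSC, and -4.81 in null ASC against 1.06 in wild-type ASC, so the null BM-MSC kept signal of both targeted genes. In the tumor line they averaged -1.97 and -7.58. Levels throughout are log2 of the processed signal minus the log2 75th percentile of the array's spots, so 0 is the 75th percentile, and a level belongs to its own probe and is not set against that of another gene. In bulk RNA, fewer cells that express a gene and less RNA per cell cannot be told apart.

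Promoter windows from RefSeq (GRCm38.p6) were matched by symbol for 5 of the 10 genes: Bmp4, Bmp6, Chrd, Grem1 and Bmpr1b. Shown are the 250 bases before the annotated start of 2 ligands that were brightest in both kinds of BM-MSC, Bmp4 (chr14:46390670-46390919, minus strand) and Bmp6 (chr13:38345466-38345715, plus strand), and of the antagonist Grem1 (chr2:113758649-113758898, minus strand), which was lowest in null BM-MSC. Each reads 5′ to 3′ on the strand of its gene, and capitals mark the GC box GGGCGG or its complement on the other strand.
Bmp4: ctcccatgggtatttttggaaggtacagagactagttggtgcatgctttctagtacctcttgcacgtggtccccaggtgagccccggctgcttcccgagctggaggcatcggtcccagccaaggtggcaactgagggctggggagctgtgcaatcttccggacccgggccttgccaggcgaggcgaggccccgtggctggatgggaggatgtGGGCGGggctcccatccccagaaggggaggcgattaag
Bmp6: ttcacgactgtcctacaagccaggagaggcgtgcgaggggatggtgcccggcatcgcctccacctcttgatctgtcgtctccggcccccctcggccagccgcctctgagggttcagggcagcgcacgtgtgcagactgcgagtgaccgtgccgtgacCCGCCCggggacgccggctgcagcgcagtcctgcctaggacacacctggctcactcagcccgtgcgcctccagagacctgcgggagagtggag
Grem1: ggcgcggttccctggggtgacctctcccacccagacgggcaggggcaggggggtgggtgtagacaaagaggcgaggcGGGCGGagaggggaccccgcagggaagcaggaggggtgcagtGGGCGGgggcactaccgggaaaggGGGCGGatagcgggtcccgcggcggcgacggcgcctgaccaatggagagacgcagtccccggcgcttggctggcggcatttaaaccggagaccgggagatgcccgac
The windows held 1 GC box before Bmp4, 1 before Bmp6 and 3 before Grem1, and 33.0% of 32536 RefSeq promoter windows of the same length held at least 1. Their GC content was 63.2%, 68.8% and 72% in that order, against a median of 52.4% over all windows. The letters TTTGGCGC and TTTCCCGC, forms of the E2F element that the retinoblastoma protein acts through, and TATAAA were found on neither strand of these windows, and they occur in 0.421%, 0.901% and 12.3% of all windows. GGCGCC, a GC-rich sequence that SMADs can bind, and CCAAT each occurred in the Grem1 window and in neither of the others, with shares of 9.65% and 33.8% over all windows. These are matches of letters and no more.

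Bmp2 was bright in the tumor line and in null BM-MSC and dim in the other groups. Its level was 2.80 and 2.78 on the tumor line arrays, 1.54 and 1.64 in null BM-MSC and -5.62 and -4.62 in wild-type BM-MSC. In ASC it was -4.15 and -4.07 in null cultures and -6.75 and -7.42 in wild-type cultures. The groups did not overlap, and they ran from the tumor line through null BM-MSC, null ASC and wild-type BM-MSC to wild-type ASC. The gap between null ASC and wild-type BM-MSC, 1.01, was about the size of the difference between the wild-type BM-MSC duplicates, 0.998. Of those duplicates 1 was not well above background, and neither wild-type ASC array was. The Bmp2 probe lies at chr2:133388260-133388319 (mm9, plus strand), and as no mm9 gene models were used here, the exon or UTR it falls in is not given.

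**Figure D1:**
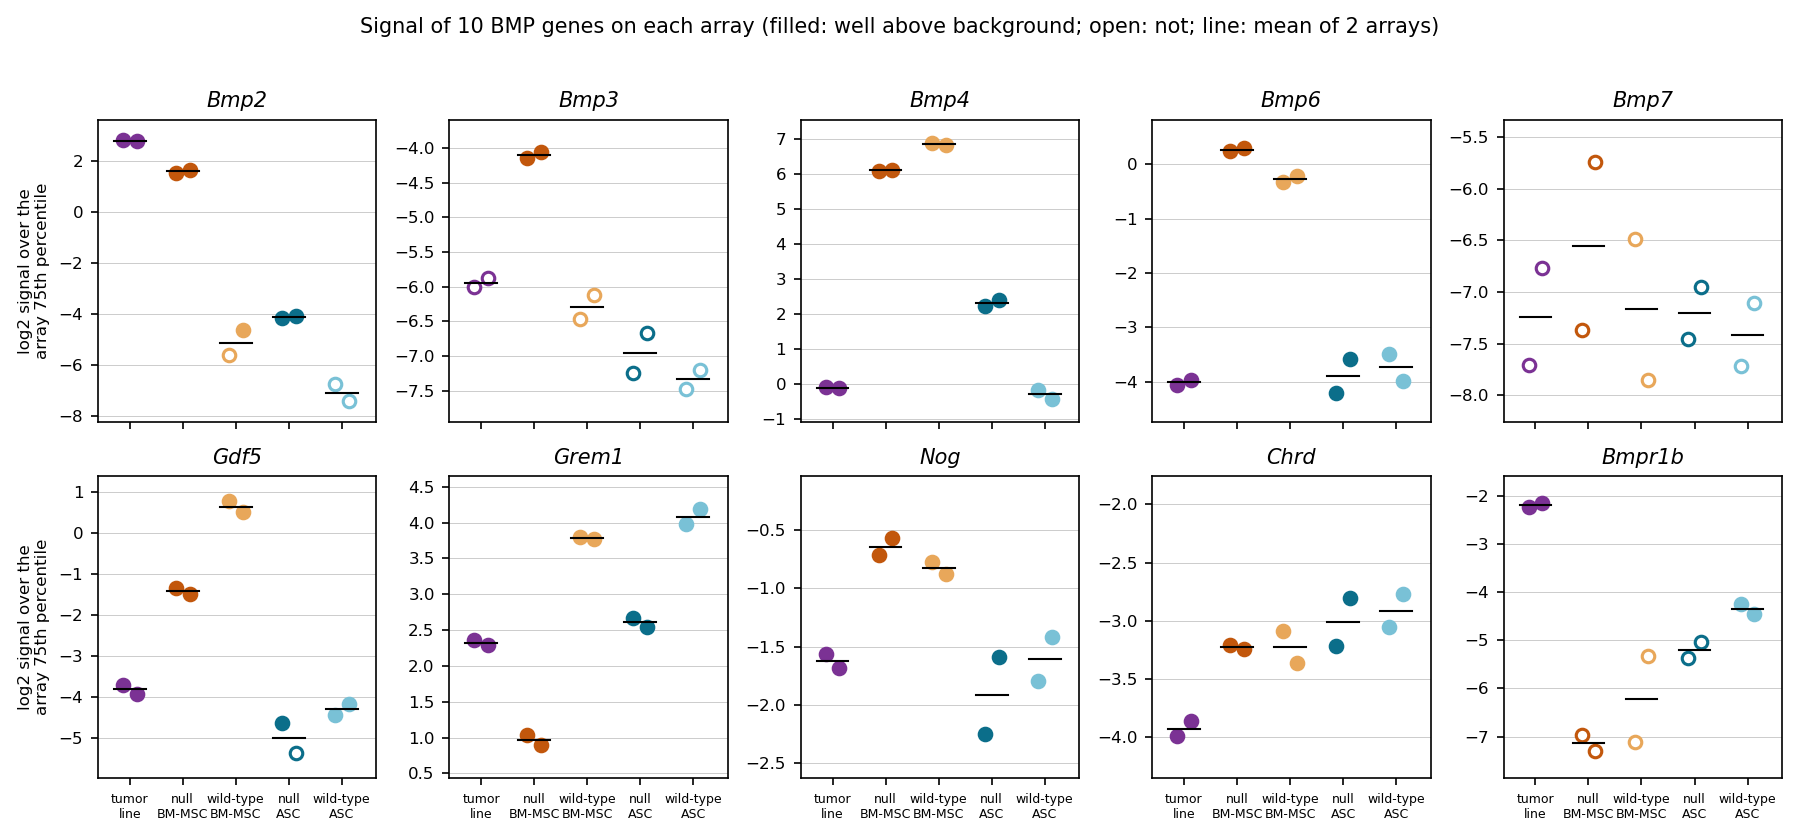
Level of each of the 10 genes (log2 signal over the array 75th percentile, each panel on its own scale) on the 10 arrays, by group. Points are arrays, filled where the spot was well above background, and lines are means of 2; Bmp2 is filled near 2.8 in the tumor line and open in wild-type ASC, and Bmp7 is open on all arrays.

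The Bmp2 difference between null and wild-type BM-MSC was 6.72 ± 0.34 on the log2 scale (SE from the linear model over all arrays), 105-fold, with 1 of 2 wild-type arrays well above background. With background fitted by normexp and quantile normalization it was 4.39, still higher in null cells. Osteoblast markers were higher in the same comparison: their summed level on the log2 scale was 7.79 to 7.88 in null and 7.20 to 7.41 in wild-type BM-MSC, with all 6 well above background in both, and Ibsp averaged 5.69 against 2.37, Bglap 3.43 against -0.18, Sp7 1.39 against -0.24 and Alpl 2.23 against 0.12. Their part in the Bmp2 difference was not tested. The same setting gave 5.52 for the tumor line against wild-type BM-MSC, 4.11 for null BM-MSC against null ASC and 0.58 for null against wild-type ASC. Between null and wild-type ASC both null arrays were above both wild-type arrays. Since wild-type ASC were not well above background, the difference is given as a bound, at least 2.44-fold in the main processing. That bound divides the bright group's mean by the lowest signal that counted as well above background on each dim array, or by the dim spot itself where that was higher. Spots not well above background could lie above that lowest signal, and normexp with quantile normalization gave a smaller log2 difference, 0.58. Each fold given as at least, here and below, is thus no strict minimum and holds for the main processing only. Bmp2 in the tumor line was 2.29-fold above null BM-MSC (1.20 ± 0.34) and 241-fold above wild-type BM-MSC (7.91 ± 0.34), the second again with 1 of 2 wild-type arrays well above background, and these comparisons share the tumor line arrays. Null BM-MSC exceeded null ASC 52.1-fold, and wild-type BM-MSC exceeded wild-type ASC at least 1.21-fold.

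Bmp4 took another order: it was bright in both kinds of BM-MSC, intermediate in null ASC and lower in the tumor line and in wild-type ASC. Its level was -0.09 and -0.12 in the tumor line, 6.07 and 6.12 in null BM-MSC, 6.88 and 6.83 in wild-type BM-MSC, 2.22 and 2.39 in null ASC and -0.16 and -0.41 in wild-type ASC. All 10 arrays were well above background and no groups overlapped, although the tumor line and wild-type ASC lay only 0.18 apart, less than the 0.25 between the wild-type ASC duplicates. The probe lies at chr14:47003391-47003450 (mm9, minus strand). A second Bmp4 probe, at chr14:47003198-47003257 and 85% A and T against 61.7%, was well above background on 0 of 10 arrays, and averaging it in shrinks the log2 differences (the tumor line against null BM-MSC becomes -3.04).

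In the tumor line Bmp4 was 73.4-fold lower than in null BM-MSC (-6.20 ± 0.10) and 124-fold lower than in wild-type BM-MSC (-6.96 ± 0.10). The tumor line thus held the highest Bmp2 level of the 5 groups together with a Bmp4 level near that of wild-type ASC. Between null and wild-type cells the sign for Bmp4 turned with the tissue: it was 1.69-fold lower in null BM-MSC (-0.76 ± 0.10) and 6.01-fold higher in null ASC (2.59 ± 0.10). Null BM-MSC exceeded null ASC 13.9-fold and wild-type BM-MSC exceeded wild-type ASC 141-fold.

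**Figure D2:**
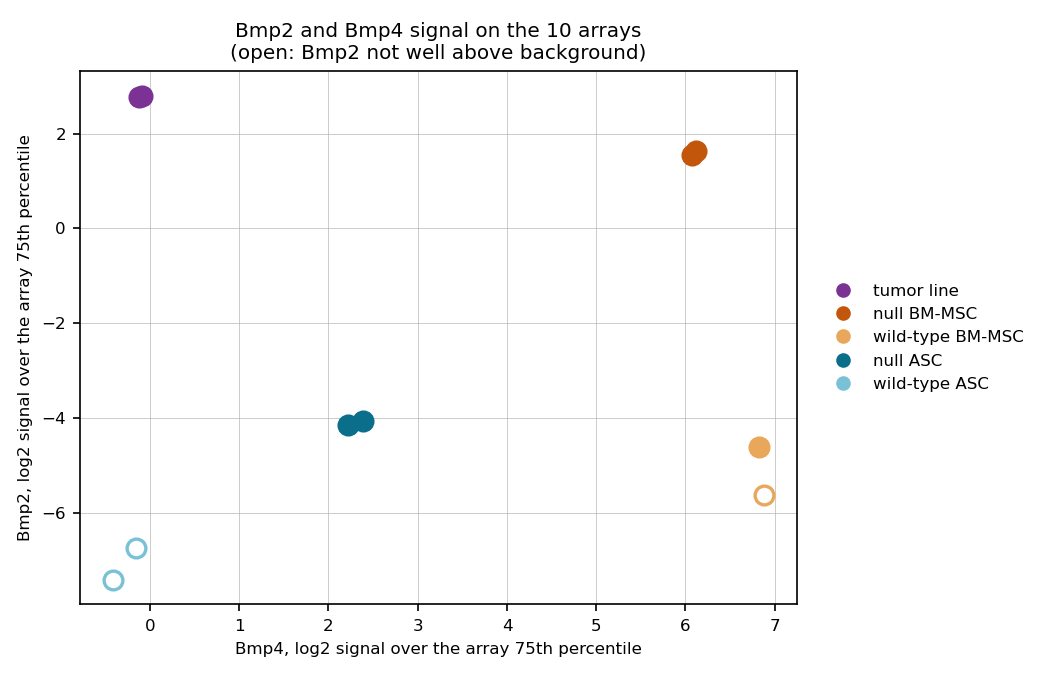
Bmp2 level (vertical) against Bmp4 level (horizontal) on the 10 arrays, both as log2 signal over the array 75th percentile, coloured by group, with open points where Bmp2 was not well above background. Null BM-MSC lie at the upper right, the tumor line at the upper left, wild-type BM-MSC at the lower right and wild-type ASC at the lower left.

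Set side by side, Bmp2 and Bmp4 were both higher in null than in wild-type ASC, and in BM-MSC Bmp2 was higher and Bmp4 lower in null cells. The effect in BM-MSC minus the effect in ASC was 3.74 ± 0.48 for Bmp2 and -3.35 ± 0.14 for Bmp4. Background limits the Bmp2 value: only 1 of 2 wild-type BM-MSC arrays and neither wild-type ASC array was well above it. In the step to the tumor line from null BM-MSC the signs were again opposite, 1.20 against -6.20. In both tissue comparisons, null and wild-type, both genes were higher in BM-MSC. The opposition thus held in comparisons within the bone marrow cells and not in ASC.

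The other ligands followed neither of these orders throughout. Bmp6, a ligand also known for its part in iron regulation, was -4.05 and -3.96 in the tumor line, 0.24 and 0.29 in null BM-MSC and -0.32 and -0.22 in wild-type BM-MSC. In ASC it was -4.21 and -3.58 in null and -3.48 and -3.99 in wild-type cultures. Bmp6 was thus higher in BM-MSC than in ASC, 17.9-fold above null ASC in null BM-MSC and 11.0-fold above the fat-derived cells in wild-type BM-MSC. It was 19.4-fold lower in the tumor line than in null BM-MSC and 13.3-fold lower than in wild-type BM-MSC, and the tumor line arrays overlapped those of both ASC groups. Null exceeded wild-type BM-MSC by 0.54 ± 0.23 with no overlap, a gap smaller than the 0.63 between the null ASC duplicates, and null and wild-type ASC overlapped. The probe lies at chr13:38591479-38591538 (mm9, plus strand).

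Gdf5, a ligand of joint formation, was highest in wild-type BM-MSC. Its level was -3.69 and -3.92 in the tumor line, -1.34 and -1.48 in null BM-MSC, 0.79 and 0.52 in wild-type BM-MSC, -4.64 and -5.37 in null ASC (1 of 2 arrays well above background) and -4.43 and -4.16 in wild-type ASC. It was 4.19-fold lower in null than in wild-type BM-MSC (-2.07 ± 0.25), and it was 5.27-fold lower in the tumor line than in null BM-MSC. Wild-type BM-MSC exceeded wild-type ASC 30.9-fold. Its second probe ran the same way in the bone marrow and tissue comparisons (null against wild-type BM-MSC -1.40, the tumor line against null BM-MSC -1.61). In null against wild-type ASC the probes disagreed: the first gave -0.71 ± 0.25 without overlap, and the second -0.08 with overlap. The probes lie at chr2:155766801-155766860 and, the second, chr2:155768050-155768109 (mm9, minus strand).

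Bmp3, which is known to oppose the bone-inducing BMPs, was well above background in null BM-MSC alone, at -4.14 and -4.06. It was at least 2.64-fold higher there than in wild-type BM-MSC, and at least 2.61-fold lower in the tumor line than in null BM-MSC. Bmp7, a ligand known from kidney and bone, was well above background on 0 of 10 arrays, with values of -7.85 to -5.74, so no difference can be read from it.

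Among the antagonists, Grem1 was lower in both kinds of null cells. Gremlin binds Bmp2, Bmp4 and Bmp7. Grem1 stood at 2.36 and 2.29 in the tumor line, 1.03 and 0.90 in null BM-MSC, 3.79 and 3.77 in wild-type BM-MSC, 2.67 and 2.55 in null ASC and 3.98 and 4.18 in wild-type ASC. No groups overlapped, and null BM-MSC had the lowest level of the 5. It was 7.05-fold lower in null than in wild-type BM-MSC (-2.82 ± 0.09) and 2.78-fold lower in null than in wild-type ASC (-1.48 ± 0.09). The tumor line was 2.56-fold above null BM-MSC and 2.75-fold below wild-type BM-MSC. The probe lies at chr2:113589227-113589286 (mm9, minus strand).

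Nog encodes noggin, whose own expression is induced by BMPs in bone cells. It was -1.57 and -1.68 in the tumor line, -0.71 and -0.57 in null BM-MSC, -0.77 and -0.88 in wild-type BM-MSC, -2.25 and -1.59 in null ASC and -1.80 and -1.42 in wild-type ASC. It was 1.98-fold lower in the tumor line than in null BM-MSC, and 2.43-fold higher in null BM-MSC than in null ASC. Null and wild-type BM-MSC differed by 0.19 ± 0.22 without overlap, a difference smaller than its SE, and the ASC groups overlapped, with a difference of -0.31 that became 0.02 without the first null ASC array. The probe lies at chr11:89162849-89162908 (mm9, minus strand).

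Chrd, which encodes chordin, was -3.99 and -3.86 in the tumor line, -3.21 and -3.24 in null BM-MSC, -3.09 and -3.36 in wild-type BM-MSC, -3.21 and -2.81 in null ASC and -3.06 and -2.77 in wild-type ASC. The tumor line lay below all other arrays, 1.63-fold below null BM-MSC, and the 4 other groups were close together. The second Chrd probe disagreed in ASC, where null lay 1.06 below wild-type without overlap, against an overlapping difference of -0.10 on the first. In the tumor line that second probe was not well above background, at least 1.96-fold below null BM-MSC.

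Bmpr1b, a type I receptor that Gdf5 prefers, was brightest in the tumor line. It was -2.23 and -2.14 there and -4.25 and -4.46 in wild-type ASC, and it was not well above background on the arrays of null BM-MSC, wild-type BM-MSC and null ASC. The tumor line exceeded null BM-MSC at least 8.26-fold and wild-type BM-MSC at least 8.78-fold, and null ASC were at least 1.66-fold below wild-type ASC. A second Bmpr1b probe was well above background in the tumor line alone, there at least 2.04-fold above null BM-MSC. The probes lie at chr3:141503374-141503433 and, the second, chr3:141500694-141500753 (mm9, minus strand).

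**Figure D3:**
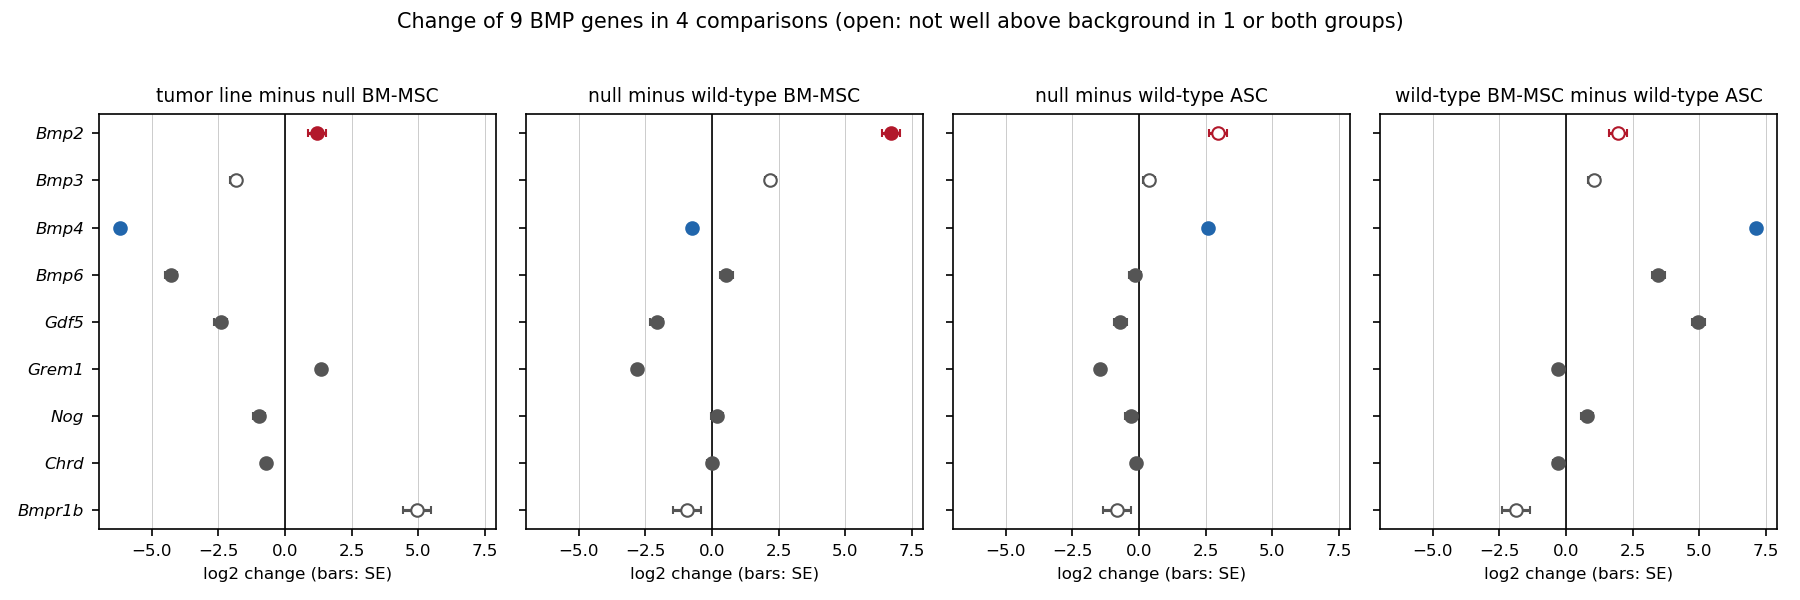
Log2 difference between groups (horizontal, bars are SE from the linear model) for the 9 genes that entered the fit, in 4 comparisons, with Bmp2 in red and Bmp4 in blue. Open points mark genes not well above background in 1 or both groups; Bmp2 lies right of 0 in all 4 panels and Bmp4 at -6.20 and -0.76 in the first 2 and at 2.59 and 7.14 in the last 2.

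Changes on this platform were widespread, and the genes' own calls are read against that. At an adjusted p under 0.05 (limma, Benjamini-Hochberg over all 22591 genes), 34.6% of genes were higher and 35.0% lower in the tumor line than in null BM-MSC, and 3 of the 9 BMP genes in the fit were higher and 6 lower. Against wild-type BM-MSC the tumor line had 33.0% higher and 34.9% lower, and 2 and 6 of the 9. Between null and wild-type BM-MSC 19.3% were higher and 20.2% lower, and 2 and 3 of the 9. Between null and wild-type ASC 20.3% were higher and 21.2% lower, and 2 and 1 of the 9. For the difference of these effects, 15.3% of genes were higher and 16.6% lower, and 2 and 3 of the 9. In null BM-MSC against null ASC 26.0% were higher and 29.4% lower, and in wild-type BM-MSC against wild-type ASC 25.7% and 28.3%, with 6 higher and 2 lower of the 9 each time. Since the genes were selected on these arrays, nothing is read from these counts.

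Around these genes, 83 other pathway genes were followed in 5 lists, which were drawn up with earlier results of these arrays known, and 69 entered the fit. The tumor line against null BM-MSC gave 17 higher and 39 lower of 69 (all genes 34.6% and 35.0%). The median log2 change was -0.49 against -0.05 over all genes. Against wild-type BM-MSC the tumor line gave 16 higher and 39 lower (all genes 33.0% and 34.9%), with a median of -0.56 against -0.06. Null against wild-type BM-MSC gave 21 higher and 23 lower (all genes 19.3% and 20.2%), with a median of 0.05 against 0.01. Null against wild-type ASC gave 15 higher and 20 lower (all genes 20.3% and 21.2%), with a median of -0.06 against -0.03. Null BM-MSC against null ASC gave 30 higher and 23 lower (all genes 26.0% and 29.4%). The wild-type tissue comparison gave 25 higher and 27 lower (all genes 25.7% and 28.3%).

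**Figure D4:**
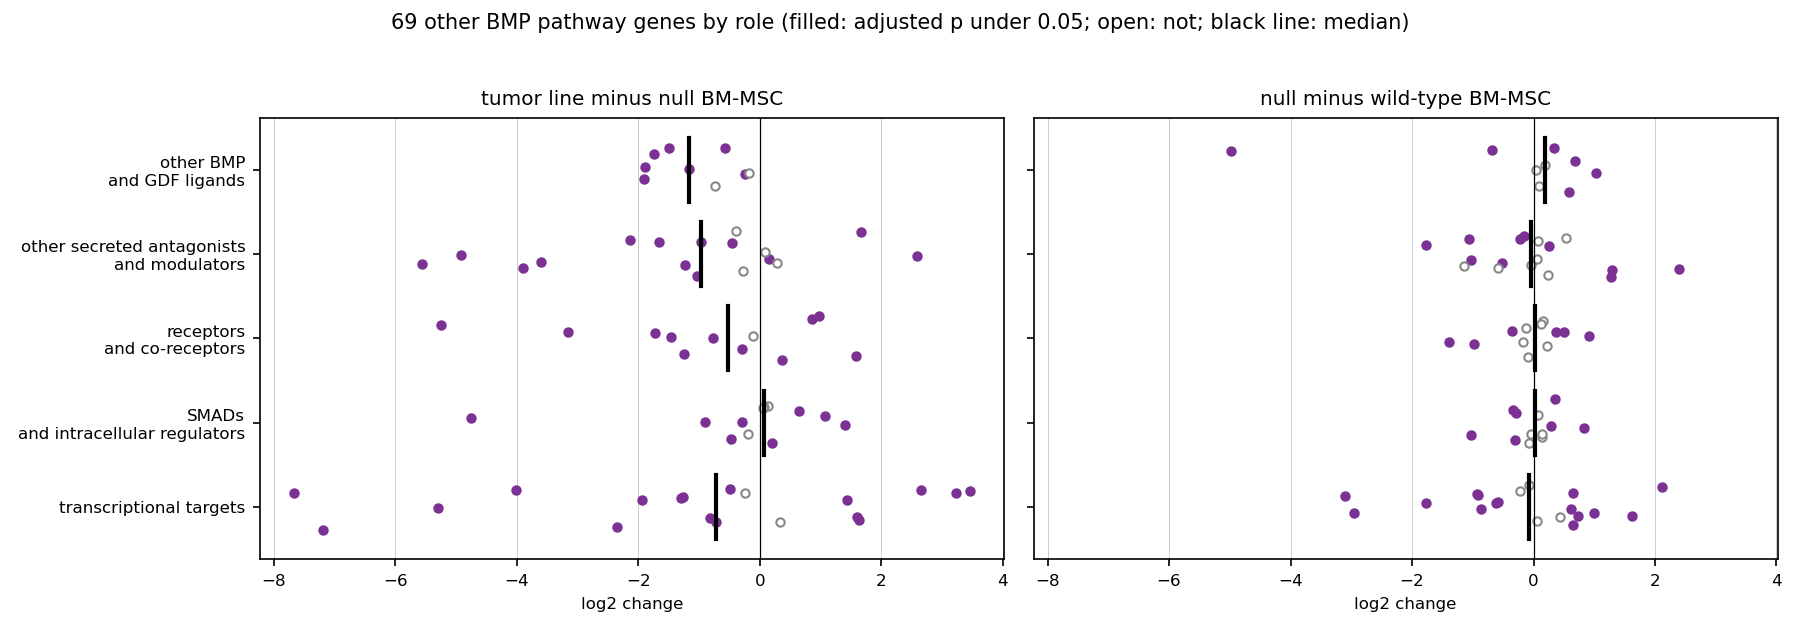
Log2 change of the 69 other pathway genes (points, jittered vertically within 5 roles) in the tumor line against null BM-MSC and in null against wild-type BM-MSC, filled where the adjusted p was under 0.05, with the median of each list as a black line. In the first comparison the ligand, antagonist, receptor and target medians lie below 0 and the SMAD median at 0.06.

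Of the 9 other ligands in the fit, 7 were lower in the tumor line than in null BM-MSC (all genes 35.0%). Gdf7 changed by -1.90 (adjusted p = 1.78e-06, limma) and Gdf11 by -1.75 (adjusted p = 5.63e-07, limma). The other 2 ligands did not pass. Among the 7, Gdf6 was well above background in neither the tumor line nor null BM-MSC. Gdf6, a close relative of Gdf5, was at least 11.1-fold lower in null than in wild-type BM-MSC (adjusted p = 2.04e-05, limma), with -6.47 and -7.03 in null and -1.83 and -1.69 in wild-type cultures. In ASC it was well above background on all 4 arrays, and the difference of effects was -5.21 ± 0.30 (adjusted p = 0.000109, limma).

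Of 17 other antagonists and modulators, 3 were higher and 10 lower in the tumor line than in null BM-MSC (all genes 34.6% and 35.0%). The matricellular BMP modulators Smoc1 (-5.57 ± 0.14, adjusted p = 3.42e-07, limma) and Smoc2 (-4.92 ± 0.05, adjusted p = 1.48e-08, limma) and the chordin-like modulator Bmper (-3.90 ± 0.10, adjusted p = 3.48e-07, limma) fell. The largest of the 3 rises was that of Chrdl1, 2.58 ± 0.36 (adjusted p = 0.000732, limma). In null against wild-type BM-MSC, Smoc2 rose by 2.40 and Bmper by 1.29, and Smoc1 fell by 1.77. Follistatin (Fst), which binds activins and some BMPs, was higher in bone marrow cells: wild-type BM-MSC exceeded wild-type ASC at least 1042-fold (adjusted p = 3.04e-06, limma), and its levels were -0.07 and -0.16 in the tumor line, 3.52 and 3.45 in null BM-MSC and 4.60 and 4.67 in wild-type BM-MSC.

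Among 12 receptors and co-receptors in the fit, 4 were higher and 7 lower in the tumor line than in null BM-MSC. Over all genes the shares were 34.6% and 35.0%. Endoglin (Eng), a co-receptor, was -2.17 and -2.07 in the tumor line against 3.17 and 3.1 in null BM-MSC, a change of -5.25 ± 0.07 (adjusted p = 4.02e-08, limma). The type I receptor Acvrl1, with which endoglin acts, changed by -3.16 ± 0.12 (adjusted p = 1.74e-06, limma). The ubiquitous receptors Bmpr1a and Bmpr2, named here after their values were seen, moved far less: -0.11 (adjusted p = 0.125, limma) and -0.29 (adjusted p = 0.00756, limma). The largest of the 4 rises, also named after its value was seen, was that of Acvr2b, 1.58 ± 0.10 (adjusted p = 1.36e-05, limma).

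Of 12 SMADs and intracellular regulators, 4 were higher and 4 lower in the tumor line than in null BM-MSC. That is near the shares over all genes, 34.6% and 35.0%. Smad6, an inhibitory SMAD that BMP signalling induces, was -3.12 and -3.36 in the tumor line against 1.48 and 1.55 in null BM-MSC (-4.76 ± 0.08, adjusted p = 7.35e-08, limma). It differed little between null and wild-type BM-MSC (-0.08 ± 0.08, adjusted p = 0.507, limma), and it was 2.14 higher in wild-type BM-MSC than in wild-type ASC (adjusted p = 2.39e-06, limma). The receptor SMADs Smad1 and Smad9 rose in the tumor line, by 1.40 (adjusted p = 4.77e-05, limma) and 1.08 (adjusted p = 0.00041, limma).

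Of 19 transcriptional targets in the fit, 6 were higher and 11 lower in the tumor line than in null BM-MSC. Over all genes the shares were 34.6% and 35.0%. The osteoblast genes Alpl and Sp7 were at least 186-fold and 107.4-fold lower (adjusted p = 1.30e-06 and 6.38e-06, limma), and Dlx5 changed by -5.29 ± 0.23 (adjusted p = 2.99e-06, limma). Beside the low Bmp4 and Bmp6 of the tumor line, the osteoblast markers Sp7, Bglap and Alpl, 3 of 6, were not well above background there, and all 6 were in null BM-MSC. The part of osteoblast content in these differences was not tested. The macrophage markers did not move one way. The log2 of their summed level was 3.74 to 3.84 in the tumor line, 4.47 to 4.54 in null BM-MSC, 4.83 to 4.85 in wild-type BM-MSC, 3.96 to 4.07 in null ASC and 4.82 to 5.04 in wild-type ASC, with 5 to 7 of 7 well above background on both arrays, Lyz2 dim in null BM-MSC and Ptprc dim in null ASC. Itgam, the brightest term of that sum, averaged 2.80 in the tumor line, 4.23 in null BM-MSC and 4.54 in wild-type BM-MSC. Lyz2 (-1.73, against -5.72 and -3.90), Cd14 (1.93, against 0.48 and 0.93) and Cd68 (0.60, against -0.87 and -0.20) were instead higher in the tumor line than in null and wild-type BM-MSC. Their part was not tested either.

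The Id genes, targets that BMP signalling induces in many cells, were set beside the ligands after their values were seen. Id1 was -1.61 and -1.81 in the tumor line, -0.33 and -0.49 in null BM-MSC and 0.47 and 0.44 in wild-type BM-MSC, so it fell in the tumor line against null BM-MSC (-1.30 ± 0.09, adjusted p = 2.20e-05, limma) and in null against wild-type BM-MSC (-0.86 ± 0.09, adjusted p = 0.000554, limma). Id3 fell in the tumor line by 0.71 (adjusted p = 0.000681, limma), and Id2 changed by -0.24 there, which did not pass (adjusted p = 0.127, limma). In ASC, where Bmp2 and Bmp4 were both higher in null cells, Id2 (1.26 ± 0.12, adjusted p = 0.000354, limma) and Id3 (0.59 ± 0.10, adjusted p = 0.00357, limma) rose and Id1 changed by -0.18 (adjusted p = 0.162, limma).

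Id4 and Msx2 stood apart from these. Id4 was 0.14 and 0.23 in the tumor line, -2.91 and -3.19 in null BM-MSC and 0.17 and -0.06 in wild-type BM-MSC, so its low level was found in null BM-MSC and not in the line derived from such cells. Msx2, a homeobox target, was -0.54 and -0.58 in the tumor line, -3.31 and -3.11 in null BM-MSC and -0.17 and -0.33 in wild-type BM-MSC. Null BM-MSC were thus low in Id4 (-3.11 ± 0.11, adjusted p = 1.16e-05, limma) and Msx2 (-2.96 ± 0.09, adjusted p = 6.93e-06, limma) while Bmp2 was bright in them. The targets did not move one way in this comparison: of 19 in the fit, 7 were higher and 8 lower in null than in wild-type BM-MSC. Over all genes the shares were 19.3% and 20.2%. Alpl, for example, rose by 2.11 ± 0.28 (adjusted p = 0.00148, limma).

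By pattern over the 10 arrays, among 14613 genes ranked, the genes most like Bmp2 were Tmem41b (Pearson r = 0.989), Nr1d2, Trim37, Pdgfc and Prph, and those most opposite were Thy1 (r = -0.992), Serpina3i, Ninl, Acy3 and Sbno2. The genes most like Bmp4 were Rspo2 (r = 0.995), Apol10b, Fkbp1b, Nav3 and Cdh11, and those most opposite were Zfp3 (r = -0.997), Trappc11, Atp6v0e2, Zxdb and Gpr85. The arrays fall into 5 groups of duplicates that share tissue, genotype and slide, so these values describe the pattern of 5 group means. They take no account of the size of a change. From wild-type ASC to the tumor line, Tmem41b averaged 2.55 and 2.99, and Bmp2 -7.08 and 2.79.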

How the data were processed

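The 10 genes and the pathway lists were chosen with earlier results of these data known. Per the file headers, the deposited spot values are intensity made by the authors with Feature Extraction 10.7.3.1: background was subtracted and dim spots hold surrogate values. The authors' deposited series matrix reads as log2 (medians 5.04 to 5.06, r with its own scanner column 0.989 to 0.993), with its normalization and centring not stated in the labels. The submitters' processing notes name limma. The matrix served as an alternative only.

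Spots flagged as outliers were left out, log2 signals were averaged per probe, the array's 75th percentile was subtracted, and each gene was represented by its probe of highest mean. Of 55681 probes 37 were dropped. Probes were named through RefSeq accession (27214), symbol (3578), synonym (565) or symbol in another case (41), and 24246 kept the file's name. All 5 groups were fitted in 1 model with limma 3.58.1 in R 4.3.3 (5 residual and 1.35 prior degrees of freedom), two-sided, adjusted over 22591 genes well above background on both arrays of a group, and 7 contrasts were taken. The number of arrays limits the precision, and the p-values measure the spread between duplicates. Computation used with data.table (version 1.17.8), pandas 2.3.3 and numpy 2.4.6, and figures with matplotlib 3.10.9, under Python 3.11.15. The code of the fit was also run on simulated data with independent normal noise. That run held no slide or line effects and no surrogate values of dim spots, so nothing about these arrays is read from it. Named were the 10 genes, up to 3 called genes per list and contrast with the largest change and no overlap, and the 5 genes most like and most opposite to Bmp2 and to Bmp4. Of the genes this rule names, 1 is not reported here, and others are left out for length. Probe coordinates are mm9. Alternatives were normexp (offset 50) with quantile normalization, quantile normalization, the series matrix, the mean of probes, 2 other filters, a replicate block, each array left out, and only the arrays compared.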

Additional observations from a re-analysis of the deposited data

Results flagged for a closer look

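Bmp4 moved in opposite directions in the tissues: null minus wild-type was -0.758 in BM-MSC and 2.588 in ASC, with both null arrays below both wild-type arrays in the first and above them in the second. Bmp4 was selected on these values, so no test of the difference is given.

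For other pathway genes the effect in BM-MSC minus the effect in ASC passed an interaction term (limma, adjusted p under 0.05). Among ligands it was -5.21 for Gdf6, -2.34 for Gdf10 and 1.23 for Gdf11. Among antagonists and modulators it was -2.74 for Fst and 2.72 for Smoc2. Among receptors and co-receptors it was 1.14 for Rgmb, 0.89 for Eng and 0.79 for Ror2. Among SMADs and regulators it was -1.56 for Smad9, 1.33 for Tob1 and 0.86 for Skil. Among targets it was -3.16 for Id4, -3.16 for Sox9 and -2.68 for Msx2. Background limits 3 of these values. Gdf6 was not well above background in null BM-MSC, nor Fst in wild-type ASC. Gdf10 was well above background in neither kind of BM-MSC, so its value rests on the change in ASC.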

How the results depend on the processing

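The direction of the Bmp2 and Bmp4 differences was the same under every alternative run, and their size was not. With normexp and quantile normalization, Bmp2 differed by 4.386 (null against wild-type BM-MSC), 0.5775 (null against wild-type ASC), 5.519 (tumor line against wild-type BM-MSC), 4.106 (null BM-MSC against null ASC) and 0.2979 (wild-type BM-MSC against wild-type ASC), and Bmp4 by 2.395 (null against wild-type ASC), -3.114 (difference of these effects), -6.055 (tumor line against null BM-MSC), -6.775 (against wild-type BM-MSC) and 6.935 (wild-type BM-MSC against wild-type ASC). In the authors' series matrix Bmp2 gave 5.911, 1.687, a difference of effects of 4.224, then 7.108, 5.268 and 1.044 in the same order of comparisons. Averaging the Bmp4 probes gave -0.1481 in BM-MSC, 1.572 in ASC, -1.72 for their difference, -3.035 and -3.183 for the tumor line against null and wild-type BM-MSC, and 1.801 and 3.521 for BM-MSC against ASC in null and wild-type cells, since 1 of 2 probes was dim. Leaving out each array in turn, Bmp2 ranged from 6.217 to 7.214 in BM-MSC, 3.245 to 4.243 for the difference of effects, 7.415 to 8.413 for the tumor line against wild-type BM-MSC and 1.462 to 2.459 for the wild-type tissues. Bmp4 ranged from 2.461 to 2.716 in ASC, -3.474 to -3.219 for the difference of effects and 7.011 to 7.266 for the wild-type tissues. Nog in ASC, -0.31, ranged from -0.6401 to 0.02059, turning its sign without null ASC replicate 1, and the cause of each move other than the probe average was not tested. The filter to genes well above background on all arrays leaves Bmp2 no value. Bmp7, not in the fit, has no values under alternatives. Of 861 values of the remaining BMP genes in the fit, 758 moved by less than the spread of duplicates, 102 by more, and 1 turned. Of 1860 for named pathway genes, 1840 kept direction and call and 20 kept direction and lost the call. The number of pathway genes called ranged from 30 to 51 in null against wild-type BM-MSC (44 as reported) and from 49 to 57 in the tumor line against null BM-MSC (56). The duplicate numbers did not pair the samples (r of duplicate differences between groups -0.122 to 0.116), and a replicate block gave 40 and 55 calls. Signal over background limits Bmp2 in wild-type cells, Bmp3, Bmp7 and Bmpr1b.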
